A study of Mus musculus with 18 samples.

Results

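Carbonic anhydrase 4 (Car4), Elfn1, Tmem54, Sertad4, Rims4, Tubb4a, Ssbp3, Cacna1b, Pde3b and Mdk are 10 of the 49671 genes in the count table of mouse embryonic stem (ES) cells grown in 3D culture. They were chosen by their counts in these samples, as genes far higher in the cultures with DMSO or Fgf2/Activin than in those with CH or 2i, so their difference between these cultures describes the choice and is not a finding. Their levels were followed across all 6 groups, and the question asked was which of them were regained when Esrrb was lost in the presence of CHIR99021.

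ES cells placed in a hydrogel of extracellular matrix can leave the naive pluripotent state and arrange themselves as a polarised epithelium around a lumen, as the epiblast of the embryo does at implantation. CHIR99021 inhibits the kinase Gsk3 and so activates Wnt/β-catenin signalling, which keeps ES cells naive. Esrrb, an orphan nuclear receptor, is one of the transcription factors of the naive state. The 10 genes have different roles: Car4 is a membrane-anchored enzyme that hydrates carbon dioxide, and Tmem54 is a transmembrane protein. Elfn1, Rims4 and Cacna1b are best known from synapses, as an adhesion protein, a member of the RIM family and the pore of the N-type calcium channel. Tubb4a is a β-tubulin, Sertad4 and Ssbp3 are nuclear proteins, Pde3b breaks down cyclic nucleotides, and Mdk is a secreted heparin-binding growth factor.

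Wild-type E14 ES cells at passage 20 were cultured for 48 h in N2B27 medium in Matrigel, with 3 samples in each of 4 groups: the solvent DMSO, CH (CHIR99021 at 3 µM), 2i (CHIR99021 as in CH, plus 0.4 µM of PD0325901, which inhibits Mek) and Fgf2/Activin (12 ng/ml of Fgf2 together with 20 ng/ml of Activin A). A separate line at passage 25, Esrrb fl/fl with a tamoxifen-inducible Cre, was cultured for 24 h with CHIR99021 at 3 µM. Its 3 Esrrb null samples had been given 4OHT for 1 day before the 3D culture, and its 3 Esrrb floxed samples had not. Both lines were maintained in 2i with Lif beforehand. Line, passage and culture time differ together between the E14 and the Esrrb samples and cannot be told apart in any comparison across them. A line without floxed Esrrb given 4OHT, and null cells without CHIR99021, were not analysed here. The total per sample was between 25388139 and 37158661 counts in the E14 cells and between 19915222 and 20140699 in the Esrrb line. Levels are given as CPM, the count per 1000000 counts of a library total scaled by TMM over the 18 samples, as mean ± SD with n = 3.

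Replicate 1 stood apart in every group. Within a group, the chi-square per gene between replicates 2 and 3 was between 1.47 and 8.57, and for pairs that included replicate 1 it was between 11.8 and 65.9. In DMSO, the naive factor Nanog had 68.1 CPM in replicate 1 and 5.92 and 2.78 CPM in replicates 2 and 3. Car4 moved with it in that group, while Elfn1 and Tmem54 were lowest in replicate 1. What set these samples apart was not tested.

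The deleted gene itself was read first. Esrrb had 143.7, 111.2 and 109.9 CPM in the Esrrb floxed samples and 58.1, 62.7 and 58.7 CPM in the Esrrb null samples. All 3 null samples lay below all 3 floxed samples, and transcripts of the gene were still counted in them. The log2 fold change was -0.99 with a standard error of 0.10 (edgeR quasi-likelihood F-test, Benjamini-Hochberg adjusted p = 7.44e-05), short of the minimum of 1 set for a call. Reads from exons outside a deleted part are still counted on the gene, so this level does not measure how many cells had lost it. In the E14 cells, Esrrb was at 320.6 ± 38.8 CPM in CH, 549.5 ± 17.9 in 2i, 15.4 ± 12.9 in DMSO and 14.1 ± 6.54 in Fgf2/Activin; over replicates 2 and 3 alone the latter means were 7.93 and 10.4 CPM.

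Among the 10 genes, the membrane proteins Car4, Tmem54 and Elfn1 went from clear expression to the edge of detection. Car4 had 72.98, 35.33 and 31.77 CPM in DMSO and 113.8, 48.4 and 46.7 CPM in Fgf2/Activin. It had 0, 7 and 2 counts in CH and 1, 0 and 2 counts in 2i. Every DMSO or Fgf2/Activin sample therefore lay far above every CH or 2i sample, and the ratio of DMSO to CH was 464.2 with a 95% counting interval from 244.3 to 1016. Without replicate 1 it was 208.5, outside that interval, and 7 of the 9 counts in CH came from replicate 2, so its size depends on single samples. Elfn1 had 5.17, 11.5 and 10.4 CPM in DMSO and 7.31, 9.77 and 11.4 CPM in Fgf2/Activin. In CH it had 0, 1 and 1 counts, a ratio of 370.2 with an interval from 102.2 to 3062, and 306.1 without replicate 1. Tmem54 had 11.3, 20.0 and 24.5 CPM in DMSO, 13.3, 21.2 and 24.0 CPM in Fgf2/Activin and 2, 3 and 1 counts in CH. No count of Tmem54 was found in the 3 samples of 2i, so its level in Fgf2/Activin was at least 204-fold higher, against 3 counts per library. Intervals and floors cover counting error only. In bulk RNA, fewer cells that express a gene and less RNA in each cell cannot be told apart.

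Rims4, Cacna1b, Tubb4a and Sertad4 kept a low level in CH. Rims4 was at 24.7 ± 2.16 CPM in DMSO, 25.0 ± 0.777 in Fgf2/Activin, 0.695 ± 0.115 in CH and 0.463 ± 0.063 in 2i. Cacna1b was at 40.6 ± 4.27 CPM in DMSO, 33.0 ± 5.14 in Fgf2/Activin, 3.29 ± 0.602 in CH and 0.587 ± 0.0956 in 2i. Tubb4a was at 24.3 ± 2.41 CPM in DMSO, 16.1 ± 2.51 in Fgf2/Activin, 0.458 ± 0.046 in CH and 0.0938 ± 0.0242 in 2i. Sertad4 was at 16.9 ± 0.726 CPM in DMSO, 36.1 ± 0.326 in Fgf2/Activin, 0.765 ± 0.0496 in CH and 0.521 ± 0.0956 in 2i.

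Ssbp3, Mdk and Pde3b remained expressed in all groups. Ssbp3, a partner of LDB and LIM-domain proteins in transcription complexes, was at 227.2 ± 10.6 CPM in DMSO, 237.9 ± 11.3 in Fgf2/Activin, 53.9 ± 2.08 in CH and 46.7 ± 2.52 in 2i. Mdk was at 225.2 ± 9.58 CPM in DMSO, 223.3 ± 11.3 in Fgf2/Activin, 59.1 ± 4.86 in CH and 53.9 ± 1.87 in 2i. Pde3b was at 33.9 ± 1.86 CPM in DMSO, 36.7 ± 3.07 in Fgf2/Activin, 5.36 ± 0.216 in CH and 2.98 ± 0.297 in 2i. These are the smallest drops among the 10 genes, 3.81-fold for Mdk, 4.21-fold for Ssbp3 and 6.32-fold for Pde3b between DMSO and CH. Per length of the exons, Mdk was the most abundant of the 10 genes in DMSO, at 170.1 ± 7.24 RPKM, and Ssbp3 was at 34.5 ± 1.61, Car4 at 23.8 ± 11.6 and Tmem54 at 15.2 ± 5.48 RPKM. Car4 was above Ssbp3 in replicate 1 and below Tmem54 in replicate 3. Elfn1 was the least abundant, at 2.16 ± 0.811 RPKM.

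**Figure D1:**
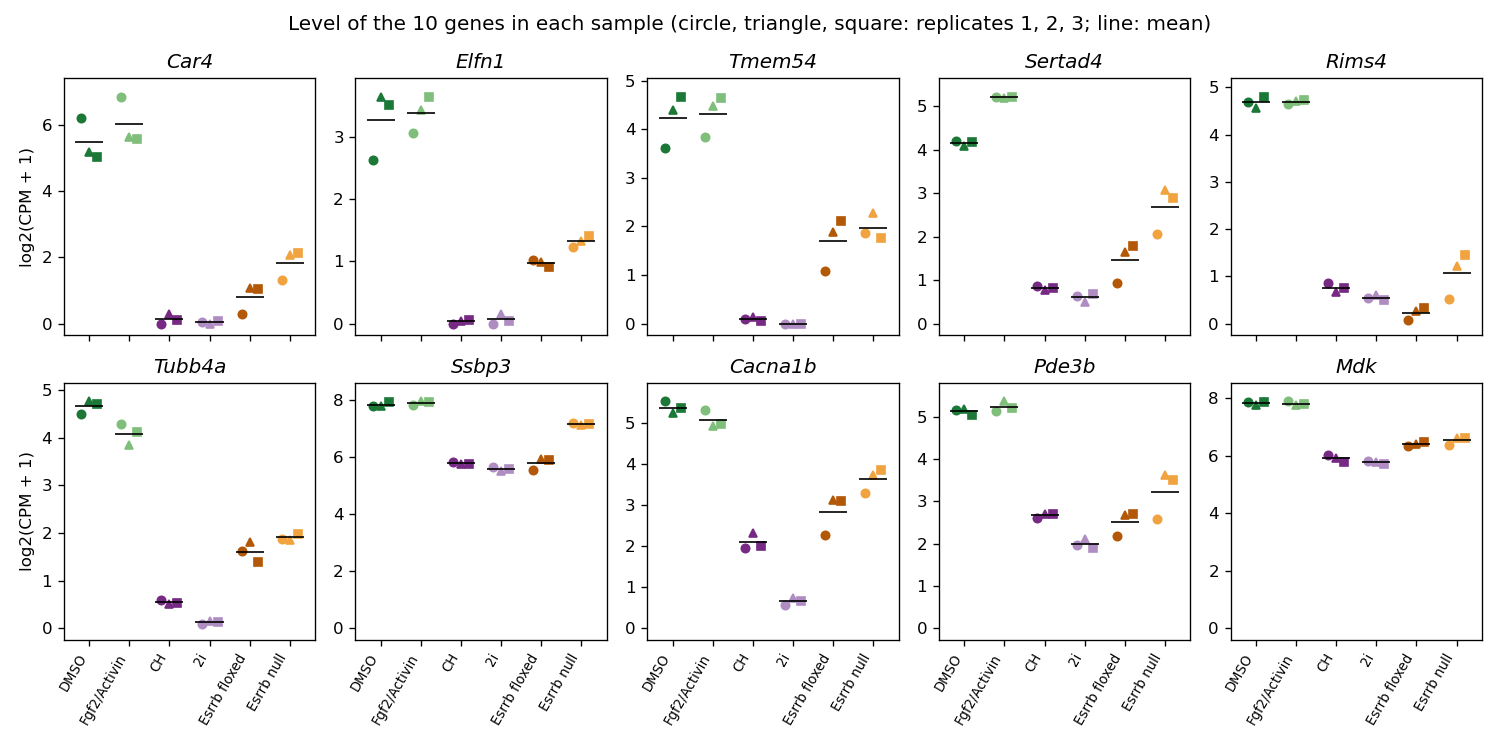
Level of each of the 10 genes in the 18 samples, as log2(CPM + 1) on a separate axis for each gene. Points are samples, with circles, triangles and squares for replicates 1, 2 and 3, and lines are the means of the log2 values of a group. Ssbp3 in the Esrrb null samples, between 137.1 and 144.0 CPM, lies between its CH and its DMSO levels, whereas Car4 and Rims4 in these samples lie far below their DMSO levels.

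Of the 16413 genes that passed the filter on low counts in the E14 samples, 10.2% were called lower in CH than in DMSO, and the Fgf2/Activin contrast called 14.4% lower in 2i. Both contrasts chose the 10 genes. A gene was called at an adjusted p under 0.01 and a log2 fold change beyond 1. Altogether 1408 genes were called lower in both, the 10 genes among them. Ordered by the smaller of their log2 changes in these contrasts, Car4 came 1st, Tmem54 3rd and Elfn1 6th, and Pde3b, Ssbp3 and Mdk came 500th, 789th and 860th. The choice thus spans strong and moderate changes.

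Whether Fgf2 and Activin A changed the genes beyond the DMSO cultures was not the rule of the choice. The samples of both groups were used in it, though, so this comparison is not independent of the choice. Sertad4 rose. Its level was 17.6, 16.1 and 17.1 CPM in DMSO and 36.5, 35.8 and 36.1 CPM in Fgf2/Activin, with no overlap. The log2 fold change was 1.09 with a standard error of 0.11 (edgeR quasi-likelihood F-test, Benjamini-Hochberg adjusted p = 0.000291), just past the minimum of 1. It was 1 of 10 genes called higher, against 0.902% of all genes tested, and 0.347% of all genes were called lower. When all 18 samples were fitted together, the adjusted p of Sertad4 was 0.0144 (edgeR quasi-likelihood F-test, Benjamini-Hochberg), and over all alternatives it ran from 2.57e-32 with DESeq2 to 1.0 with glmTreat, which tests against a log2 fold change of 1 itself. Tubb4a pointed the other way, with 21.6, 26.2 and 25.1 CPM in DMSO and 18.5, 13.5 and 16.4 CPM in Fgf2/Activin, but did not pass (log2 fold change -0.59; edgeR quasi-likelihood F-test, Benjamini-Hochberg adjusted p = 0.0433). Taking the replicate number as a block, 275 genes were called higher and 149 lower in this comparison, in place of 148 and 57.

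Between 2i and CH, which differ by the Mek inhibitor, 1.67% of genes were called lower in 2i and 0.317% higher, and 2 of the 10 genes were called lower. Car4, Elfn1 and Tmem54 passed the filter through the groups in which they were chosen as high. With only the 6 samples compared, 7 of the 10 genes passed it and 1 was called lower, against 72 of 15062 genes. Cacna1b had 2.89, 3.98 and 3.00 CPM in CH and 0.488, 0.678 and 0.594 CPM in 2i. This was a log2 fold change of -2.48 with a standard error of 0.20 (edgeR quasi-likelihood F-test, Benjamini-Hochberg adjusted p = 0.000103). Tubb4a had 15, 13 and 11 counts in CH and 2, 4 and 3 counts in 2i, a log2 fold change of -2.23 with a standard error of 0.28 (edgeR quasi-likelihood F-test, Benjamini-Hochberg adjusted p = 0.00112). The samples of the groups did not overlap for either gene. The call of Tubb4a was lost when only the 6 samples compared were fitted (edgeR quasi-likelihood F-test, Benjamini-Hochberg adjusted p = 0.019) and with glmTreat (0.102), and held in the other alternatives that tested it, down to an adjusted p of 0.000233. Pde3b was lower by less than the minimum, with a log2 fold change of -0.84 and a standard error of 0.11. Car4, Elfn1 and Tmem54 had at most 7 counts in any sample of these groups, and no test of them is given; Tmem54 had 2, 3 and 1 counts in CH and none in 2i. Of the 7 genes other than Car4, Elfn1 and Tmem54, edgeR's quasi-likelihood test called 0 higher in 2i, and DESeq2's test 0. At an unadjusted p under 0.05 in edgeR's test, 0 of these 7 genes were higher and 6 lower, against 8.71% and 11.0% of all genes. The CH and 2i samples were also used to choose all 10 genes, so these counts are not independent of the choice. DESeq2 called Cacna1b and Tubb4a lower. Blocking on the replicate number gave 138 genes higher and 534 lower in 2i, in place of 52 and 274. Markers of cell states changed in this comparison too. Of 4 mesendoderm markers tested T, Mixl1 and Evx1 were called lower in 2i (median -2.79), with T at 664.5, 501.8 and 435.6 CPM in CH and 113.7, 80.4 and 79.0 CPM in 2i, and Cdx2, Foxa2, Dab2, Nes and Podxl of other marker lists were called lower as well. Their part in the drop of Cacna1b and Tubb4a was not tested.

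Whether the 10 genes returned when Esrrb was lost was read between the null and the floxed cells, both in CHIR99021. Ssbp3 (ENSMUSG00000061887, chr4:106910701-107049694 on the plus strand of GRCm38) rose. The Esrrb floxed samples had 46.1, 59.6 and 58.1 CPM and the Esrrb null samples 144.0, 137.1 and 140.5 CPM. All null samples were above all floxed samples by a wide margin, and the spread within the null group was small. The log2 fold change was 1.40 with a standard error of 0.09 (edgeR quasi-likelihood F-test, Benjamini-Hochberg adjusted p = 7.8e-06), and Ssbp3 was called under every alternative that was run.

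Sertad4 (ENSMUSG00000016262, chr1:192844488-192855756, minus strand) rose as well. Its level was 0.911, 2.12 and 2.45 CPM in the floxed samples and 3.17, 7.48 and 6.43 CPM in the null samples, with replicate 1 the lowest of each group. The groups did not overlap, and each null sample exceeded the floxed sample of its number between 2.63-fold and 3.52-fold. The log2 fold change was 1.67 with a standard error of 0.39 (edgeR quasi-likelihood F-test, Benjamini-Hochberg adjusted p = 0.00597). The call was lost when any single sample other than replicate 1 of the null group was left out, with log2 fold changes from 1.35 to 1.93. Without replicate 1 of both groups it was called, at 1.64. The adjusted p ranged from 2.61e-08 in that fit to 0.167 with glmTreat, both by edgeR with Benjamini-Hochberg.

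Ssbp3 and Sertad4 were thus 2 of the 9 genes called higher among those that passed the filter, against 12.8% of the 14893 genes tested, while 3.87% of all genes were called lower. By edgeR's quasi-likelihood test 0 of the 9 genes were called lower, and 0 by DESeq2's test, which called Car4 higher as well. At an unadjusted p under 0.05 in edgeR's test, 6 of the 9 genes were higher and 0 lower, against 33.0% and 29.9% of all genes. Car4 is in this count and passed the filter of this fit only through the null samples, where it is higher. Counts of the 9 genes that include Car4 are therefore not independent of its rise. Without replicate 1 of the null group 6 of the 10 genes were called higher, namely Ssbp3, Sertad4, Car4, Rims4, Cacna1b and Pde3b, and without replicate 1 of both groups 5, the same genes without Cacna1b. These fits called 12.7% and 13.0% of all genes higher. Rims4 passed the filter in both only through its null samples, so its place in these counts is not independent of its rise. For 6 of the 9 genes all null samples lay above all floxed samples, as they did for 32.4% of all genes tested.

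Car4 (ENSMUSG00000000805, chr11:84957786-84966044, plus strand) lay close to the thresholds. It had 4, 21 and 20 counts in the floxed samples and 31, 68 and 72 counts in the null samples, or 0.214, 1.09 and 1.04 CPM against 1.49, 3.20 and 3.38 CPM. The groups did not overlap, and replicate 1 was the lowest of each. The log2 fold change of 1.81, with a standard error of 0.48, missed the threshold (edgeR quasi-likelihood F-test, Benjamini-Hochberg adjusted p = 0.0107). Blocked on the replicate number it passed, at a log2 fold change of 1.83 (edgeR quasi-likelihood F-test, Benjamini-Hochberg adjusted p = 3.86e-05), in a fit that called 13.5% of all genes higher. It also passed with DESeq2, at 1.80, with no filter, at 1.80, without replicate 1 of the null group, at 2.096, and without replicate 1 of both groups, at 1.66. It did not pass with all 18 samples in one fit, at 1.77, with DESeq2's size factors, with glmTreat, or when any other single sample was left out. Over all alternatives the adjusted p, by edgeR's quasi-likelihood functions or DESeq2 with Benjamini-Hochberg, lay between 1.89e-06 and 0.189.

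Rims4 (ENSMUSG00000035226, chr2:163859751-163918683, minus strand) had too few counts for the filter. There were 1, 4 and 5 counts in the floxed samples and 9, 28 and 37 counts in the null samples, which did not overlap, a ratio of 6.67 with a 95% counting interval from 3.43 to 14.5. Fitted without a filter, which called 7.59% of all genes higher, its log2 fold change was 2.72 (edgeR quasi-likelihood F-test, Benjamini-Hochberg adjusted p = 0.00119). It also passed with all 18 samples in one fit, at 2.70, without replicate 1 of the null group, at 3.12, and without replicate 1 of both groups, at 2.71. It did not pass when 1 floxed sample was left out, at 2.32, 2.86 and 3.12 without replicates 1, 2 and 3, with adjusted p-values up to 0.0201 in the same edgeR quasi-likelihood test with Benjamini-Hochberg. In the fits with samples left out, Rims4 passed the filter on low counts only through its null samples. Its level in the null cells was nevertheless only 1.16 ± 0.666 CPM, the range of which overlapped that of E14 cells in CH.

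The other 6 genes were not called. Cacna1b had 3.86, 7.77 and 7.56 CPM in the floxed samples and 8.87, 12.3 and 13.5 CPM in the null samples, a log2 fold change of 0.89 with a standard error of 0.26. Pde3b had 3.54, 5.39 and 5.52 CPM in the floxed samples and 4.94, 11.3 and 10.3 CPM in the null samples, a log2 fold change of 0.91 with a standard error of 0.31. Cacna1b did not overlap between the groups. Pde3b did, though its null samples exceeded the floxed samples of the same number 1.40-fold, 2.096-fold and 1.86-fold. With the replicate block its log2 fold change of 0.89 stayed under the minimum (edgeR quasi-likelihood F-test, Benjamini-Hochberg adjusted p = 0.000102). Leaving out replicate 1 of the null group brought both past the thresholds, at log2 fold changes of 1.05 and 1.20, and leaving out replicate 1 of both groups did so for Pde3b, at 1.02, but not for Cacna1b, at 0.79. Elfn1 had 1.02, 0.984 and 0.886 CPM in the floxed samples and 1.34, 1.51 and 1.64 CPM in the null samples, a log2 fold change of 0.67 with a standard error of 0.21. Tubb4a had a log2 fold change of 0.46 with a standard error of 0.20 and Tmem54 one of 0.34 with a standard error of 0.35. Tmem54 was higher in the null sample of 2 of the 3 pairs with the same number. Mdk, with between 1481 and 2061 counts in each of these samples, had the smallest difference, a log2 fold change of 0.16 with a standard error of 0.08, and its groups overlapped.

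**Figure D2:**
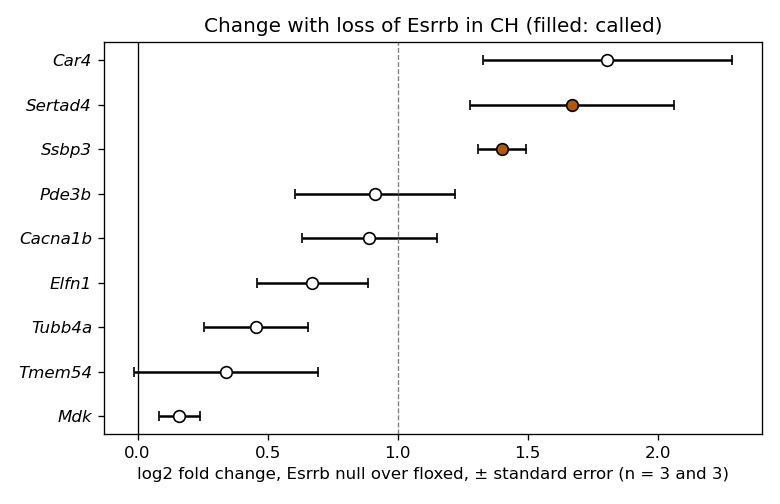
Log2 fold change of the 9 genes that passed the filter between Esrrb null and Esrrb floxed cells in CHIR99021, with standard errors over 3 and 3 samples. Filled points are the genes called, Sertad4 at 1.67 and Ssbp3 at 1.40, and the dashed line marks the minimum log2 fold change of 1; Car4 at 1.81 has the largest fold change and the largest standard error.

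A rise over the floxed cells was not a return to the level of the polarised E14 cultures. Set against the mean in DMSO, Ssbp3 was at 24.0% in the floxed and 61.8% in the null cells, and Sertad4 at 10.8% and 33.6%. Car4 was at 1.67% and 5.76%, and Rims4 at 0.703% and 4.70%. These shares compare different lines, passages and culture times, and they say how far each level lay from that in DMSO and no more. Mdk was at 37.3% in the floxed and 40.6% in the null cells, and Cacna1b at 15.8% and 28.5%. The floxed cells did not have the levels of E14 cells in CH either: Tmem54 was at 2.39 ± 1.14 CPM against 0.0687 ± 0.029, Elfn1 at 0.963 ± 0.0689 against 0.0242 ± 0.0213, Tubb4a at 2.06 ± 0.436 against 0.458 ± 0.046, Sertad4 at 1.83 ± 0.81 against 0.765 ± 0.0496 and Mdk at 83.9 ± 4.47 against 59.1 ± 4.86, with no overlap. For Car4, Ssbp3, Cacna1b and Pde3b the floxed samples overlapped those of E14 cells in CH, and Rims4 was lower in the floxed cells.

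The change in the null cells was also counted over every gene with the pattern of the 10. Of the 1408 genes called lower in both CH and 2i, 1079 were tested in the Esrrb line. Of these, 486 (45.0%) were called higher and 26 (2.41%) lower in the null cells, and without the 10 genes 484 of 1070 (45.2%) were called higher. Over all genes tested, 12.8% were called higher and 3.87% lower. The 486 genes made up 25.5% of the 1909 genes called higher in the null cells. No test of these shares was made, and the 10 genes are too few for their own count, 2 of 9, to be read against them.

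The relatives of the 10 genes were taken from family lists, without the genes themselves. Over all genes tested, 12.8% were called higher and 3.87% lower in the Esrrb null cells, the shares to set beside the counts of each list. In the Esrrb null cells 4 of 10 carbonic anhydrases tested were called higher, namely Car3, Car5b, Car7 and Car13, and the median log2 fold change of the list was 0.63, against 0.00 over all genes. Car13 had 13.7, 10.4 and 9.48 CPM in the floxed samples and 25.4, 21.8 and 23.2 CPM in the null samples. The call of Car13 was lost with all 18 samples in one fit, with glmTreat and without floxed replicate 3. Car2, the most abundant of the family, was at 24.6 ± 3.26 CPM in the floxed and 46.9 ± 2.41 in the null cells. Among the calcium channel subunits 3 of 8 were called higher, the T-type pores Cacna1g and Cacna1h and the auxiliary subunit Cacna2d2 (median 0.51). In the midkine list 4 of 10 were called higher and 1 lower (median 0.64). Ptn, the other member of the midkine family, had 3.54, 4.87 and 4.79 CPM in the floxed and 8.78, 9.69 and 12.9 CPM in the null samples. Lrp1, a midkine receptor, had 30.3, 40.1 and 40.2 CPM in the floxed and 121.1, 127.5 and 136.0 CPM in the null samples, and the syndecan Sdc3 was also higher and the integrin Itga6 lower. The remaining gene called higher, Gpc2, lies over 55.6% of its exon bases in another gene model, and reads of the pair cannot be told apart. Mdk itself was not called, as given above.

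Of the 10 tubulins tested Tubb6 was higher, from 22.3, 29.3 and 29.9 CPM to 125.9, 92.0 and 104.4 CPM, and the neuronal Tubb3 was lower, from 24.4, 13.3 and 13.97 CPM to 6.86, 5.41 and 4.83 CPM (median -0.40). In edgeR's quasi-likelihood test 2 tubulins were higher and 7 lower at an unadjusted p under 0.05, against 33.0% and 29.9% of all genes. Of 7 partners in the list of SSBP, LDB and LMO proteins, Lmo4 was lower (median 0.20). Ssbp3 was the one gene of its list called higher: edgeR's quasi-likelihood test called 0 of its 7 partners higher and DESeq2's test 0. At an unadjusted p under 0.05, 3 partners were higher and 2 lower, against 33.0% and 29.9% of all genes. Of 12 phosphodiesterases Pde5a and Pde10a were higher and Pde1b and Pde8a lower (median -0.06), and at an unadjusted p under 0.05, 4 were higher and 5 lower. In the list of leucine-rich repeat adhesion proteins, 1 of 7 was called higher (Slitrk4, median 0.90) and DESeq2 called 0. Of this list 6 were higher and 0 lower at an unadjusted p under 0.05, against 33.0% and 29.9% of all genes. Of the 4 other SERTA genes, 0 were called in either direction by edgeR's quasi-likelihood test or by DESeq2's (median 0.35). Among them 3 were higher and 0 lower at an unadjusted p under 0.05, against 33.0% and 29.9% of all genes. Between Fgf2/Activin and DMSO the family genes called were Car7 and Pde4b, higher, and Cacna2d1, lower, and between 2i and CH they were Snap25 and Cacna1h, both lower in 2i.

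Markers of cell states moved with the same comparison. Of 19 markers of polarised epithelium 8 were called higher and 0 lower in the null cells, against 12.8% and 3.87% of all genes (median 0.58). They were Cgn, Ocln, Cldn3, Cldn4, Cldn6, Cldn7, Krt18 and Krt8, the last from 6.22, 2.95 and 3.80 CPM to 206.6, 100.7 and 102.4 CPM. Pard6b, Pard3, Prkci, Prkcz, Crb3, Podxl, Ezr and Cdh1 were not called. At an unadjusted p under 0.05 in edgeR's quasi-likelihood test, 14 of the 19 were higher and 3 lower, against 33.0% and 29.9% of all genes. The summed level of the 19 was 1580, 1801 and 1803 CPM in the floxed and 2388, 2085 and 2079 CPM in the null samples. It was 4172, 3317 and 3247 CPM in DMSO and 1522, 1614 and 1648 CPM in CH, with Cdh1 the most abundant and none at 0. The name of the 10 genes as markers of polarised cultures thus goes with a higher sum of these markers in DMSO than in CH.

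Of 5 mesendoderm markers, T, Mixl1 and Evx1 were called higher among the 4 tested in the null cells (median 2.50). Over all genes 12.8% were called higher and 3.87% lower. The sum of the list was 80.3, 99.5 and 100.5 CPM in the floxed and 432.1, 550.2 and 552.2 CPM in the null samples, with T the most abundant and Gsc at 0 in 1 floxed sample. In DMSO, where the 10 genes were high, this sum was 8.89, 13.8 and 13.8 CPM and mostly Eomes, and in CH, again led by T, it was 692.2, 529.2 and 460.6 CPM. Among 7 naive and general pluripotency markers Sox2 and Klf4 were called lower, and DESeq2 called 3 lower. The list includes Esrrb itself, whose own change is its median (-0.99). The sum fell from 2270, 1978 and 2037 CPM to 1235, 1226 and 1168 CPM, with Pou5f1 the most abundant. Of 8 markers of the post-implantation epiblast Fgf5 was higher and Otx2 lower (median -0.20), and the sum, led by Dnmt3b, was 1234, 1724 and 1706 CPM in the floxed and 801.4, 1195 and 1058 CPM in the null samples.

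The counts of this paragraph stand against 12.8% of all genes called higher and 3.87% lower. Of 12 neural markers tested 4 were higher, including Nes, and 4 lower, including Pax6 (median -0.74). Their sum was 297.9, 227.9 and 231.8 CPM in the floxed samples, where Stmn2 was the most abundant, and 279.6, 283.9 and 287.9 CPM in the null samples, where Nes was, and Neurog2 was at 0 in 2 samples of each group. Of 4 primitive endoderm markers tested Gata4 and Pdgfra were higher and Sox7 lower (median 1.09), though Gata4 was not called by DESeq2 or in 4 of the 6 fits with 1 sample left out, with sums of 3.65, 2.18 and 3.54 CPM in the floxed samples, led by Sox7, and 5.56, 7.34 and 7.84 CPM in the null samples, led by Pdgfra. Of 4 trophectoderm markers tested Cdx2 and Krt7 were higher (median 0.47), with sums of 30.9, 20.4 and 19.1 CPM in the floxed samples, led by Tfap2c, and 35.02, 27.9 and 33.9 CPM in the null samples, led by Cdx2. The part of these cell states in the changes of the 10 genes was not tested.

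The genes most like each of the 10 were found by Pearson's r of log2(CPM + 1) over the 18 samples. The polarised and the other cultures form separate clusters of samples, so a high r mostly says that a gene separates them too. Sertad4 was most like Fgf5 (r = 0.99) and Bcl11b (r = 0.98), and Fgf5 had a mean of 46.9 CPM in DMSO, 0.358 in CH, 2.69 in floxed and 16.3 in null cells. Ssbp3 was most like Ptprs and Crip2 (both r = 0.99), and Ptprs had 237.2 CPM in DMSO, 67.0 in CH, 59.5 in floxed and 145.3 in null cells. Both pairs share the intermediate level in the null cells. The null samples entered r, so this level is part of the choice and not a separate finding. Elfn1 was most like Sall2 and Kcng3 (both r = 0.99), Rims4 like Prr36 and Vat1l (both r = 0.99) and Cacna1b like Trio and Clip3 (both r = 0.99). Mdk and Tubb4a were each the closest gene of the other (r = 0.99), followed by Tmem158 for Mdk and Rbbp8nl for Tubb4a (both r = 0.99). Car4 was closest to Rasgrf2 and Pcbp4 (r = 0.99 and 0.98), Tmem54 to Rbbp8nl and Elfn1 (r = 0.99 and 0.98) and Pde3b to Cacng8 and Ifit2 (both r = 0.99).

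Promoter sequences, from RefSeq for GRCm38.p6, were found for 7 of the 10 genes, with 10 start sites, and not for Rims4, Pde3b and Mdk. The 250 bases before each start were searched on both strands for the element of oestrogen-related receptors TCAAGGTCA, its core AAGGTCA, which lies within it, the TCF/LEF motifs CTTTGAT and CTTTGAA, the OTX motif TAATCC, the TATA box TATAAA and the E-box CACGTG. Of 32851 mouse promoters 0.387%, 4.08%, 3.21%, 4.46%, 6.25%, 12.4% and 6.02% hold them, in this order. In the 10 windows the one match was an AAGGTCA on the minus strand before Elfn1. The windows of Elfn1, with the match in capitals, of Ssbp3, the gene with the clearest rise, and of Car4 are shown. They lie at chr5:139907616-139907865, chr4:106911220-106911469 and chr11:84957504-84957753, all on the plus strand and all without overlap of an exon in the annotation. Bases just after the start were found in an annotated transcript for Ssbp3 and not for Elfn1 and Car4. The window of Ssbp3 shown held 82.4% G and C with 43 CpG dinucleotides, and those of Elfn1 and Car4 60.8% with 6 and 56.4% with 11. The window of another Ssbp3 start site, at chr4:106922935-106923184 and not shown, held 55.6% with 3. The median of all promoters was 52.4% with 6. A match is a description of the letters and not a binding site.
Elfn1: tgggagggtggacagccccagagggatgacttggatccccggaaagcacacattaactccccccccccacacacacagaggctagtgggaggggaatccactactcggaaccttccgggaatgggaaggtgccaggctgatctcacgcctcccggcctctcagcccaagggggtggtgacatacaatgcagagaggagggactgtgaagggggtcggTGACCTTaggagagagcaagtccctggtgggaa
Ssbp3: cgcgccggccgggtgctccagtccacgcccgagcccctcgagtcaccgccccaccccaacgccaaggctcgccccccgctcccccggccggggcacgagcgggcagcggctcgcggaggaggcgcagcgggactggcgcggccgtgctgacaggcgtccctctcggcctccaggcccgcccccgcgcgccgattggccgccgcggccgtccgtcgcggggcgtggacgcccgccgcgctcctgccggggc
Car4: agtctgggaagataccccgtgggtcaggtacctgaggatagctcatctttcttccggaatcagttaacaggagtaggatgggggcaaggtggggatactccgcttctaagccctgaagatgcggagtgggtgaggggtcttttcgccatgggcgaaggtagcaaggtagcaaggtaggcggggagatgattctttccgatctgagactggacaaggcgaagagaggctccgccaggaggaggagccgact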

How the data were processed

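Poly(A) RNA libraries of 18 samples were sequenced on a NextSeq 500 with 75 cycles. Per the submitters' processing notes and the study's methods, the authors mapped reads with TopHat2 against mm10. HTSeq then gave the deposited counts per Ensembl gene of GRCm38, with strand ignored. The Ensembl release is not given in the sources used here. Samples were grouped by their titles. Counts were tested with edgeR 4.0.16 (R 4.3.3): TMM scaling, filterByExpr, glmQLFit and glmQLFTest, with the 12 E14 and the 6 Esrrb samples fitted apart, and genes called at an adjusted p under 0.01 and a log2 fold change beyond 1. Standard errors were taken from the test statistic. The test was first run on simulated counts. RPKM used the union of GENCODE exons, and 49326 identifiers matched that annotation.

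The members and gene lists were chosen with earlier results of these data known. Named were the 10 genes, Esrrb, the 2 genes most like each, called or abundant relatives, and marker genes. Replicate numbers come from the sample titles, which do not say what they mean; the study states that its experiments were repeated independently, but not how this applies to the sequenced samples, so p-values measure the spread between these samples. Deviations from group means of same-numbered samples correlated between 0.38 and 0.56 in the Esrrb line and between 0.41 and 0.82 in the E14 comparisons. Samples of different numbers reached 0.43 and 0.70, since replicates 2 and 3 deviated alike, so these values do not tell which of them pair. Alternatives were the replicate block, DESeq2 1.42.0, its size factors, no filter, at least 10 counts in every sample, glmTreat, other sample sets, each sample left out, and plain library totals. Leaving out replicate 1 of every group was added after seeing the data. Without strand, reads of overlapping genes cannot be told apart: 3.58% of Sertad4's exon bases overlap Gm15867 and 4.66% of Tmem54's overlap Hpca. By blastn 2.17.0 none of the 10 genes shared 75 bases at 95% identity with another gene. Figures were drawn with matplotlib 3.10.9 in Python 3.11.15.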

Additional observations from a re-analysis of the deposited data

How the results depend on the processing

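No member's called change reversed under any alternative run. In Esrrb null against floxed cells, 2 of the 10 genes were called; 4 were without a filter, 1 with glmTreat, and between 1 and 6 with samples left out (6 without replicate 1 of the null group, 5 without replicate 1 of both, an alternative added after seeing the data). Rims4, counted in the 6 and the 5, passed the filter in those fits only through its null samples. Between null and floxed cells glmTreat, which tests against the fold minimum itself, called 793 genes higher and 174 lower. Leaving out samples gave 1701 to 1971 higher and 482 to 635 lower. Of the 50 list genes called, 50 were still called with the replicate block and 16 with glmTreat; apart from Car4 the block changed no other call of the 10 genes.

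Between Fgf2/Activin and DMSO, genes called higher and lower were 275 and 149 with the replicate block, 248 and 126 with DESeq2, 45 and 12 with glmTreat, 230 and 106 with all 18 samples, 62 and 25 with only the 6 compared, and 84 to 318 and 28 to 181 with samples left out. Sertad4 was not called with glmTreat or all 18 samples, leaving 0 of the 10 genes by edgeR's quasi-likelihood functions, against 1 by DESeq2. At an unadjusted p under 0.05 in the fit reported, 1 was higher (Sertad4) and 1 lower (Tubb4a), against 8.12% and 8.76% of all genes. Between 2i and CH the counts were 138 and 534 with the replicate block, 107 and 490 with DESeq2, 1 and 46 with glmTreat, 83 and 418 with all 18 samples, 28 and 72 with only the 6 compared, and 17 to 214 and 124 to 554 with samples left out. At least 10 counts in every sample left 182 lower, and it, glmTreat and the fit of 6 samples each left 1 of the 10 genes called lower. Genes called lower in CH than in DMSO were 955 with at least 10 counts and 774 with glmTreat, and 1270 to 2202 with samples left out; those lower in 2i than in Fgf2/Activin were 1333, 1446 and 1980 to 2766. By DESeq2's calls 1547 genes had the pattern of the 10, and 43.6% of those tested were higher in the null cells. The cause of these shifts was not tested.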
